A study of Mus musculus with 17 samples.

Results

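The laminin chain genes and the integrin subunit genes were examined in 17 mouse tumours profiled by RNA sequencing. Every gene symbol of the count tables made of Lama, Lamb or Lamc and a number, or of Itga or Itgb and the subunit's number or letter, came under the rule, and 36 of the 23284 genes are described: 10 laminin chains, 18 integrin alpha and 8 integrin beta subunits. The labels give 8 tumours with engineered alleles of Rb1, Trp53 and Crebbp and 9 with engineered alleles of Rb1 and Trp53, so the alleles of Rb1 and Trp53 were shared by both groups and Crebbp was the difference. All were labelled as neuroendocrine tumours of the pituitary from an engineered mouse model. The series was designed to find genes that Crebbp regulates in primary pituitary tumours. The series title speaks of loss of Crebbp, and the sources used here give neither the construction of the alleles nor a promoter for a recombinase, and no age or strain of the mice. No label states that each tumour is from a mouse of its own, so the p-values reflect only the spread between these tumours.

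Laminins are cross-shaped trimers of an alpha, a beta and a gamma chain that polymerise into the sheet of the basement membrane, the matrix on which epithelial and endocrine cells and blood vessels rest. Integrins are membrane receptors made of an alpha and a beta subunit, and they tie the matrix to the cytoskeleton. Integrins α3β1, α6β1, α6β4 and α7β1 are the main laminin receptors, those with αv bind RGD-containing ligands such as fibronectin and vitronectin, and those with β2 are found on leukocytes. In the pituitary a basement membrane surrounds the cords of hormone-producing cells, and in the thyroid the calcitonin-producing C cells lie inside the basement membrane of the follicle. Crebbp encodes the CREB-binding protein, a histone acetyltransferase and coactivator of transcription.

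The tumours were split by the rule that a library with more Pomc than Calca counts is Pomc-high and any other is Calca-high. The 10 Pomc-high libraries were Rb1/Trp53/Crebbp T5 to T8 and Rb1/Trp53 T2 and T5 to T9, and the 7 Calca-high libraries were Rb1/Trp53/Crebbp T1 to T4 and Rb1/Trp53 T1, T3 and T4. The split rests on measured counts and is not a grouping made by the study. Tbx19, a transcription factor that defines the Pomc lineage of the pituitary, was found at 306 to 418 CPM (counts relative to library size after TMM scaling) in Pomc-high and at no more than 0.317 CPM in Calca-high tumours. Nkx2-1, which marks thyroid and lung epithelium, stood at 0.425 to 14.4 CPM in Pomc-high and 188.5 to 330.6 CPM in Calca-high tumours, so the 7 Calca-high tumours lacked the defining Pomc-lineage gene of the labelled tissue. The neuroendocrine genes Chga and Syp were at 3144 and 242 CPM or above in every library. Crebbp itself, counted over the whole gene, stood at 42.8 to 62.4 CPM in Rb1/Trp53/Crebbp against 39.6 to 116 CPM in Rb1/Trp53 Pomc-high tumours, and at 67.4 to 93.4 CPM in Rb1/Trp53/Crebbp against 48.2 to 55.5 CPM in Rb1/Trp53 Calca-high tumours. A count over the whole gene cannot show a deleted exon, so it does not check the labels. Gene totals per library were 8328297 to 28140755 counts, with a median of 13456360. The Pomc-high library Rb1/Trp53/Crebbp T8 stood apart, with summed markers of pituicytes and astroglia at 577 CPM and of Schwann cells and myelin at 714 CPM, where the other 9 Pomc-high libraries lay at 12.6 to 62.2 CPM and 50.6 to 114 CPM.

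The 250 bases before the annotated start are printed for 5 genes: Lama5, the member with the largest genotype difference among those called in Pomc-high tumours, Itgb8 and Lamb2, the called members with the largest rise and fall in Calca-high tumours, and Lamb3 and Lamb1, the called members with the largest set differences in either direction. The sequences are RefSeq's for GRCm38.p6, written 5′ to 3′ on the gene's own strand. Capitals mark matches on either strand to the cyclic AMP response element TGACGTCA (CRE, the motif bound by CREB), its core TGACG, the GC box GGGCGG and the TATA box TATAAA. The core is contained in the full element.
Lama5, chr2:180225860-180226109, minus strand: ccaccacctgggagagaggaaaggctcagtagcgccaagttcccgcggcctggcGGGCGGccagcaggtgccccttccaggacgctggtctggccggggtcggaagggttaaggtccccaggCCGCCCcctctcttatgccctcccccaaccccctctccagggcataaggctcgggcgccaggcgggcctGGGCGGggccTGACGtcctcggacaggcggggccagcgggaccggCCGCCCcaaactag
Lamb2, chr9:108479612-108479861, plus strand: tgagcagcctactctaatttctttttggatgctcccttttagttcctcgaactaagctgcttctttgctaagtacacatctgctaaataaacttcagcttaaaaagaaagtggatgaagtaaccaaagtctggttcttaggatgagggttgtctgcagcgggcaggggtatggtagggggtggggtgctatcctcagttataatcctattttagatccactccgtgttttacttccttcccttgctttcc
Itgb8, chr12:119238277-119238526, minus strand: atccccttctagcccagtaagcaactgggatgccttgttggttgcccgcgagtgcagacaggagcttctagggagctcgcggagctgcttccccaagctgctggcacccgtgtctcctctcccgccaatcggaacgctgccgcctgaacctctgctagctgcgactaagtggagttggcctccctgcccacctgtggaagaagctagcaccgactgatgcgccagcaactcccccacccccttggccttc
Lamb3, chr1:193301744-193301993, plus strand: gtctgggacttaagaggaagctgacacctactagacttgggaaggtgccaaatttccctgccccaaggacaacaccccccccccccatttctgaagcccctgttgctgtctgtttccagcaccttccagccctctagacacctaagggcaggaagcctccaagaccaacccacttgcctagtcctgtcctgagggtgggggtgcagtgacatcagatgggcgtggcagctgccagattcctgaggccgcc
Lamb1, chr12:31265043-31265292, plus strand: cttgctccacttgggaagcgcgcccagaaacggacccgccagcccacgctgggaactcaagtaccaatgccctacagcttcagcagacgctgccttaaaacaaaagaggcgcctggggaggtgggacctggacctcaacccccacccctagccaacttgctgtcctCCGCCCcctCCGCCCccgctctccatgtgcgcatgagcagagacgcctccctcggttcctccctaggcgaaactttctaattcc
The Lama5 window held the CRE core with its first base 49 bases before the start, and 4 GC boxes, and 72.4% of its bases were G or C. The Lamb1 window held 2 GC boxes, and the windows of Lamb2, Itgb8 and Lamb3 held none of the 4 motifs. Of the 36 genes, 23 had a window in the RefSeq table. The full CRE was in 0 of these 23 windows and in 1.6% of the 27025 windows of all genes in the table. The CRE core was in those of Itga9, Itgb1, Itgb6 and Lama5 (4 of 23) and in 17.8% of all windows. The GC box was in 8 of 23 and in 33.0% of all windows, and the TATA box was in 0 of 23 and in 13.0% of all windows. A match describes the letters of the window and is no evidence of binding.

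Compared per length, the same 3 integrin genes led in both sets. Levels per kb used the exon length of the GRCm38 annotation, while the counts rest on mm9, so they are approximate. Itgb1, the common beta subunit of the matrix receptors, averaged 87.4 CPM per kb in Pomc-high and 78.0 CPM per kb in Calca-high tumours. Itga3, the alpha subunit of the laminin receptor α3β1, averaged 40.3 CPM per kb in Pomc-high and 23.4 CPM per kb in Calca-high tumours. Itgb5, which pairs with αv, averaged 21.9 CPM per kb in Pomc-high and 30.8 CPM per kb in Calca-high tumours. Next in Pomc-high tumours came the laminin chain gene Lamb1, at 12.45 CPM per kb. Lamc1 stood at 7.18 CPM per kb in Pomc-high and 8.55 CPM per kb in Calca-high tumours, and Lama5 at 5.77 CPM per kb in Pomc-high and 5.69 CPM per kb in Calca-high tumours. At the other end, Itgad, a leukocyte subunit, had 5 counts over the 17 libraries, and Itga2, a collagen receptor subunit, had 71. Lamc3 stayed at or below 1.78 CPM and Itga8, which pairs with β1, at or below 1.02 CPM in every library. Itga2 and Itgad passed the filter on low counts in none of the fits.

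**Figure D1:**
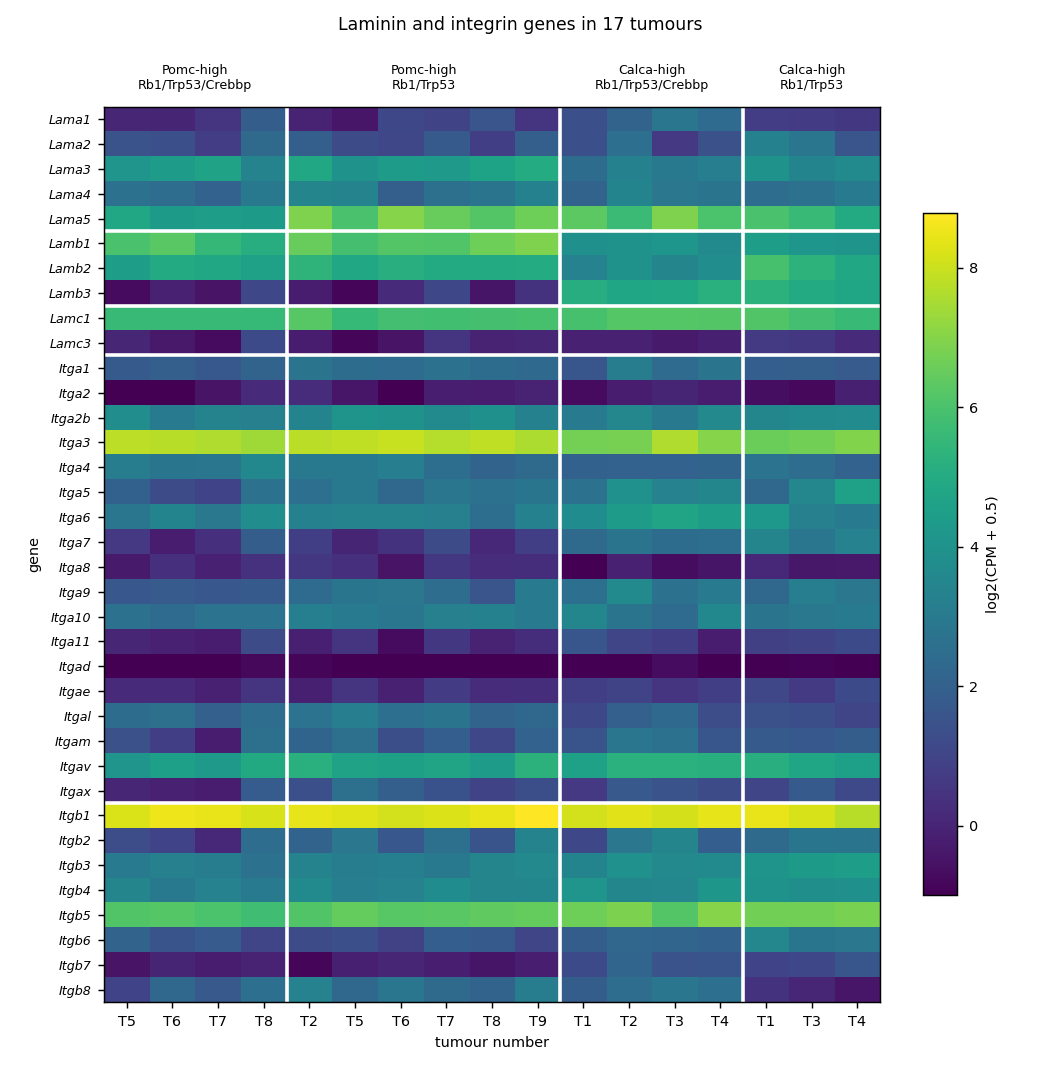
Levels of the 36 laminin and integrin genes (rows) in the 17 tumours (columns, by set and genotype), in colour as log2 of TMM-scaled CPM plus 0.5. The rows of Itgb1, Itga3 and Itgb5 are bright in every tumour, Lamb3 is dark in the 10 Pomc-high tumours and bright in the 7 Calca-high ones, and Lama5 is duller in the 4 Pomc-high Rb1/Trp53/Crebbp tumours than in the 6 Pomc-high Rb1/Trp53 ones.

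In Pomc-high tumours the genotype was compared in 4 Rb1/Trp53/Crebbp and 6 Rb1/Trp53 libraries, and 28 of the 36 genes passed the filter on low counts. Of these, 3 were called and all 3 were lower in Rb1/Trp53/Crebbp: Lama5, Itga1 and Itga9. This is 10.7% of the members tested, where 8.42% of all 14010 genes tested were called with 3.15% called higher and 5.26% lower (edgeR quasi-likelihood test, Benjamini-Hochberg adjusted p under 0.05). The median log2 fold change was -0.33 over the 28 genes and 0.01 over all genes tested, and 22 of the 28 values were below 0. In bulk samples, fewer cells of a type and less RNA per cell cannot be told apart.

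Lama5 encodes the α5 chain, the widespread alpha chain of adult epithelial and vascular basement membranes. In the 4 Rb1/Trp53/Crebbp Pomc-high tumours it stood at 27.9, 19.5, 22.1 and 19.4 CPM (T5 to T8), resting on 201 to 265 counts. In the 6 Rb1/Trp53 Pomc-high tumours its lowest value was 62.0, its median 93.8 and its highest 128 CPM, resting on 629 to 1763 counts. Every Rb1/Trp53/Crebbp tumour lay below every Rb1/Trp53 tumour of the set, and the groups did not overlap. Here and below, the share of all genes without overlap was not counted, so overlap is given as a description of the values. Lama5 averaged 22.2 ± 4.02 CPM (SD, n = 4) in Rb1/Trp53/Crebbp and 94.7 ± 25.6 CPM (SD, n = 6) in Rb1/Trp53 tumours, a log2 fold change of -2.07 ± 0.21 SE or 4.21-fold lower (Benjamini-Hochberg adjusted p = 0.000241 by edgeR's quasi-likelihood F test). It was called in all 10 fits that left out 1 library, with log2 fold changes of -2.20 to -1.97. Of the 5 windows printed, that of Lama5 alone held the CRE core, a motif present in 17.8% of all windows.

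No other laminin chain described here was called in Pomc-high tumours. Lamb1, a partner of Lama5 in the trimer of most adult basement membranes, stood at 62.2, 76.9, 45.6 and 34.1 CPM in Rb1/Trp53/Crebbp tumours. Its lowest, median and highest values in Rb1/Trp53 tumours were 59.2, 80.8 and 119 CPM, so the groups overlapped (log2 fold change -0.61 ± 0.24, Benjamini-Hochberg adjusted p = 0.142 by edgeR's quasi-likelihood F test). Lamb2 showed -0.34 ± 0.12 (log2, adjusted p = 0.106) and Lamc1 showed -0.28 ± 0.11 (adjusted p = 0.126), both by the same test. The chains Lama1, Lama2, Lama3 and Lama4 lay between -0.43 and 0.16. Lamb3 and Lamc3 did not pass the filter.

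The called integrins were alpha subunits that pair with β1. Itga1, a subunit of a collagen receptor, stood at 2.95, 3.40, 2.75 and 3.88 CPM in Rb1/Trp53/Crebbp tumours. In Rb1/Trp53 tumours its lowest, median and highest values were 4.61, 5.06 and 6.25 CPM. The groups of Itga1 did not overlap, and the log2 fold change was -0.68 ± 0.19 SE (Benjamini-Hochberg adjusted p = 0.0482 by edgeR's quasi-likelihood F test). Itga9, whose integrin α9β1 binds tenascin-C and osteopontin, stood at 2.64, 2.96, 2.64 and 2.91 CPM in Rb1/Trp53/Crebbp tumours. In Rb1/Trp53 tumours its values ran from 2.53 over a median of 5.76 to 7.89 CPM, and only T8, the lowest, did not lie above the Rb1/Trp53/Crebbp values (log2 fold change -0.99 ± 0.28, adjusted p = 0.0468, by the same test). Both stood close to the threshold: leaving out 1 library in turn ended the call of each in 9 of 10 fits, and the number of members called ran from 1 to 5. Without Rb1/Trp53 T8 there were 2 of 27 tested, Lama5 and Itga9 (-1.14 ± 0.22), where 997 of all 13994 genes tested were called, 382 higher and 615 lower.

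Rb1/Trp53/Crebbp T8 was the library whose omission raised the count, and the other 9 omissions each lowered it. Without T8, 5 members were called lower, namely Lama5 (-2.0 ± 0.23), Itga1 (-0.76 ± 0.21), Itga5 (-1.37 ± 0.29), Itgax (-2.67 ± 0.51) and Itgb2 (-1.92 ± 0.51), all as log2 fold changes with SE. Itga5, the alpha subunit of the fibronectin receptor, stood at 3.59, 1.85, 1.43 and, in T8, 5.74 CPM in Rb1/Trp53/Crebbp tumours and at 4.46, 6.23 and 7.20 CPM (lowest, median, highest) in Rb1/Trp53 tumours. Itgax, the CD11c subunit of myeloid cells, stood at 0.527, 0.444, 0.33 and, in T8, 3.07 CPM in Rb1/Trp53/Crebbp tumours and at 1.49, 2.22 and 5.69 CPM (lowest, median, highest) in Rb1/Trp53 tumours. For both genes T8 was the highest of its group and lay within the Rb1/Trp53 range, and the other 3 tumours lay below that range. The summed macrophage markers of T8, 190 CPM, were likewise the highest of its group, where the other 3 tumours had 32.8 to 101 CPM. In Rb1/Trp53/Crebbp T5 to T7 Itgax rested on 5, 6 and 3 counts and Itgb2 on 19, 20 and 5 counts. Without T8, Itgax thus passed the low-count filter through the Rb1/Trp53 tumours, where it was higher, and the size of its fold change is uncertain. With T8 included the log2 fold changes were -0.91 ± 0.34 for Itga5 (adjusted p = 0.113), -1.33 ± 0.61 for Itgax (adjusted p = 0.192) and -1.17 ± 0.55 for the leukocyte subunit Itgb2 (adjusted p = 0.211; Benjamini-Hochberg adjustment, edgeR's quasi-likelihood F test).

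The remaining 22 tested members, laminin chains included, ranged from -0.80 (Itgb8) to 0.43 (Itga4) on the log2 scale. Of the 3 most abundant per length, Itgb1 had a log2 fold change of -0.04 ± 0.13, Itga3 of -0.14 ± 0.10 and Itgb5 of -0.28 ± 0.10, none of them called. The 8 members that did not pass the filter, Itga2, Itga8, Itga11, Itgad, Itgae, Itgb7, Lamb3 and Lamc3, were at or below 1.86 CPM in every Pomc-high library.

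Markers of other cell types were read beside these values. Summed macrophage markers stood at 32.8 to 190 CPM in Rb1/Trp53/Crebbp and 116 to 355 CPM in Rb1/Trp53 tumours, and 2 of 10 tested were called lower. Summed endothelial markers stood at 32.7 to 66.3 CPM in Rb1/Trp53/Crebbp and 50.5 to 78.0 CPM in Rb1/Trp53 tumours, with 1 of 9 tested called lower. Fibroblast markers (28.7 to 145 CPM in Rb1/Trp53/Crebbp, 45.7 to 163 CPM in Rb1/Trp53) and those of pericytes and smooth muscle (28.1 to 66.5 CPM in Rb1/Trp53/Crebbp, 36.7 to 77.7 CPM in Rb1/Trp53) overlapped, with 0 of 5 and 0 of 7 tested called. At an unadjusted p under 0.05 there were 5 of the 10 macrophage, 5 of the 9 endothelial, 1 of the 5 fibroblast and 2 of the 7 pericyte markers. The median log2 fold changes of these 4 lists were -0.98, -0.74, -0.56 and -0.76. Markers of other leukocytes summed to 1.27 to 2.51 CPM in Rb1/Trp53/Crebbp and 3.10 to 7.46 CPM in Rb1/Trp53 tumours, and Ms4a1 and Ncr1 were at 0 in all 10. The part of these cells in the member values was not tested.

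**Figure D2:**
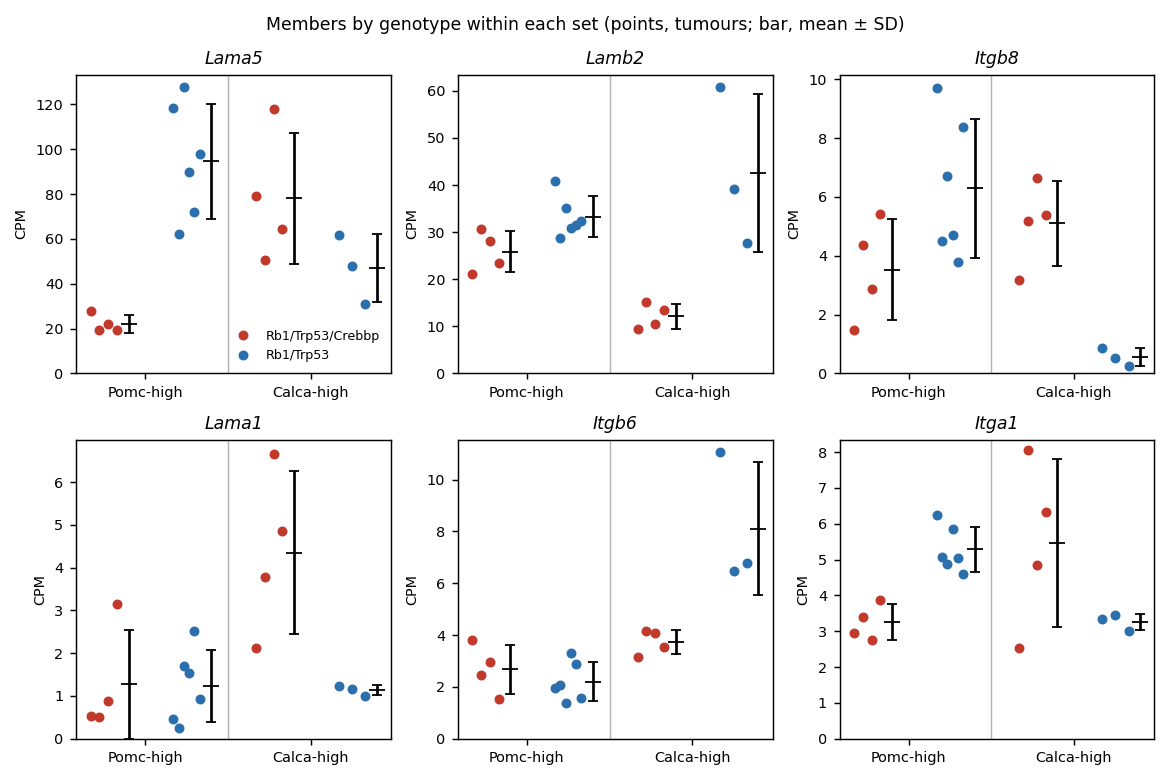
TMM-scaled CPM (linear axes from 0) of 6 laminin and integrin genes, 1 point per tumour, with the mean and SD of each genotype beside its points and the sets left and right of the grey line. The 4 Pomc-high Rb1/Trp53/Crebbp tumours sit at 19.4 to 27.9 CPM of Lama5, below the 6 Rb1/Trp53 tumours at 62.0 to 128 CPM, and the 3 Calca-high Rb1/Trp53 tumours sit at 0.867 CPM of Itgb8 or below.

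In Calca-high tumours the genotype was compared in 4 Rb1/Trp53/Crebbp and 3 Rb1/Trp53 libraries, and 32 members passed the filter. Of these, 7 were called, Itgb8 and Lama1 higher and Lamb2, Itgb6, Itgb3, Itga7 and Lama3 lower in Rb1/Trp53/Crebbp. That is 21.9% of the members tested, against 36.2% of all 14797 genes tested, of which 19.1% were called higher and 17.1% lower (edgeR quasi-likelihood test, Benjamini-Hochberg adjusted p under 0.05). The median log2 fold change was -0.02 both over the 32 members and over all genes.

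Lamb2, the β2 chain found in basement membranes of vessels, glomeruli and synapses, stood at 9.51, 15.2, 10.4 and 13.6 CPM in the Rb1/Trp53/Crebbp Calca-high tumours (T1 to T4). In the Rb1/Trp53 tumours T1, T3 and T4 it stood at 60.9, 39.1 and 27.7 CPM. All 4 Rb1/Trp53/Crebbp tumours lay below the 3 Rb1/Trp53 tumours, which spread over a wider range. The log2 fold change was -1.79 ± 0.28 SE, or 3.46-fold lower (Benjamini-Hochberg adjusted p = 0.00322 by edgeR's quasi-likelihood F test). Lama1, the chain typical of embryonic basement membranes, went the other way, at 2.11, 3.79, 6.65 and 4.86 CPM in Rb1/Trp53/Crebbp tumours and 1.23, 1.17 and 1.0035 CPM in Rb1/Trp53 tumours. Its groups did not overlap, and the log2 fold change was 1.95 ± 0.40 (adjusted p = 0.0081, by the same test). Lama3, the chain of hemidesmosome-anchoring laminin, stood at 5.07, 9.23, 7.29 and 8.53 CPM in Rb1/Trp53/Crebbp tumours and 15.2, 10.2 and 11.9 CPM in Rb1/Trp53 tumours. The log2 fold change of Lama3 was -0.70 ± 0.23 (adjusted p = 0.0456, by the same test), and the call was lost in 6 of 7 fits that left out 1 library.

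Lama5 was not called in Calca-high tumours. It stood at 79.1, 50.8, 118 and 64.3 CPM in Rb1/Trp53/Crebbp and 61.7, 48.1 and 31.2 CPM in Rb1/Trp53 Calca-high tumours. The groups overlapped, and the log2 fold change of Lama5 was 0.74 ± 0.33 (Benjamini-Hochberg adjusted p = 0.114 by edgeR's quasi-likelihood F test). Of the chains abundant in this set, Lamb3 had a log2 fold change of -0.03 ± 0.16 and Lamc1 of 0.25 ± 0.13, neither of them called. Lama2, the chain of muscle and nerve, ranged widely, at 2.11, 5.38, 1.02 and 2.19 CPM in Rb1/Trp53/Crebbp and 9.36, 6.63 and 2.51 CPM in Rb1/Trp53 tumours (-1.18 ± 0.60, adjusted p = 0.154, by the same test).

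The largest difference among the integrins was that of Itgb8, the subunit whose integrin αvβ8 binds and activates latent TGF-β. It stood at 3.17, 5.19, 6.65 and 5.39 CPM in Rb1/Trp53/Crebbp tumours, on 30 to 104 counts. In Rb1/Trp53 tumours it stood at 0.867, 0.53 and 0.251 CPM, on 5 to 19 counts. Every Rb1/Trp53/Crebbp tumour lay above every Rb1/Trp53 tumour, and the log2 fold change was 3.21 ± 0.46 SE, or 9.23-fold higher (Benjamini-Hochberg adjusted p = 0.0023 by edgeR's quasi-likelihood F test). The Rb1/Trp53 counts were low, and Itgb8 passed the low-count filter through the Rb1/Trp53/Crebbp tumours, where it was higher. The size of its fold change is therefore uncertain. Itgb6, the epithelial partner of αv that also activates latent TGF-β, moved the opposite way, at 3.17, 4.16, 4.10 and 3.55 CPM in Rb1/Trp53/Crebbp and 11.0, 6.48 and 6.77 CPM in Rb1/Trp53 tumours. The groups did not overlap (log2 fold change -1.096 ± 0.25, adjusted p = 0.012, by the same test).

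Itgb3, the beta subunit of the vitronectin receptor and of the platelet fibrinogen receptor, stood at 10.04, 14.8, 11.8 and 12.2 CPM in Rb1/Trp53/Crebbp and 16.1, 19.5 and 21.8 CPM in Rb1/Trp53 tumours. Its groups did not overlap (log2 fold change -0.63 ± 0.16, Benjamini-Hochberg adjusted p = 0.0196 by edgeR's quasi-likelihood F test). Itga7, the alpha subunit of a laminin receptor of muscle, stood at 4.65, 6.29, 4.93 and 5.27 CPM in Rb1/Trp53/Crebbp and 10.5, 6.70 and 9.48 CPM in Rb1/Trp53 tumours, again without overlap (-0.73 ± 0.21, adjusted p = 0.0303, by the same test). The call of Itga7 was lost in 5 of 7 fits that left out 1 library and that of Itgb3 in 1 of 7, while Lamb2, Itgb8, Lama1 and Itgb6 were called in all 7. Itga7 exons overlap those of Mettl7b on the opposite strand, and the strand setting of the counting is not given in the sources used here. How reads of the shared stretch were counted is therefore not known. The other laminin-receptor subunits were not called: Itga6 had a log2 fold change of 0.80 ± 0.33, Itga3 of 0.34 ± 0.22, Itgb4 of -0.06 ± 0.20 and Itgb1 of 0.13 ± 0.17. The 25 tested members without a call ranged from -1.18 (Lama2) to 0.80 (Itga6), and the 4 not tested, Itga2, Itga8, Itgad and Lamc3, were at or below 1.10 CPM.

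Markers of several other cell types differed between the genotypes of the Calca-high set. Summed endothelial markers stood at 44.9 to 60.4 CPM in Rb1/Trp53/Crebbp and 83.5 to 97.2 CPM in Rb1/Trp53 tumours, with 6 of 10 called lower. Pericyte and smooth muscle markers summed to 50.7 to 134 CPM in Rb1/Trp53/Crebbp and 90.9 to 165 CPM in Rb1/Trp53 tumours (3 of 7 called lower), and fibroblast markers to 124 to 396 CPM in Rb1/Trp53/Crebbp and 400 to 642 CPM in Rb1/Trp53 tumours (0 of 6 called, 2 at an unadjusted p under 0.05). Macrophage markers stood at 86.4 to 265 CPM in Rb1/Trp53/Crebbp and 245 to 288 CPM in Rb1/Trp53 tumours, with 3 of 10 called lower. Thyroid follicle markers stood at 928 to 1297 CPM in Rb1/Trp53/Crebbp and 2115 to 16820 CPM in Rb1/Trp53 tumours, and all 5 were called lower. Simple epithelium markers stood at 1790 to 2203 CPM in Rb1/Trp53/Crebbp and 2566 to 3201 CPM in Rb1/Trp53 tumours, with 2 of 5 called lower. Summed fat markers stood at 6.335 to 10.02 CPM in Rb1/Trp53/Crebbp and 37.8 to 207 CPM in Rb1/Trp53 tumours, with all 4 tested called lower. Schwann cell and myelin markers stood at 83.4 to 102.8 CPM in Rb1/Trp53/Crebbp and 131.3 to 150.8 CPM in Rb1/Trp53 tumours (1 of 3 tested called lower), and those of other leukocytes at 5.39 to 11.6 CPM in Rb1/Trp53/Crebbp and 19.6 to 39.4 CPM in Rb1/Trp53 tumours (1 of 2 tested called lower). Platelet markers, read beside Itgb3, summed to 1.06 to 3.52 CPM in Rb1/Trp53/Crebbp and 4.47 to 5.71 CPM in Rb1/Trp53 tumours, with Gp6 at 0 in all 7. The 2 platelet markers tested went opposite ways. Pf4 was called lower (log2 fold change -1.51 ± 0.47), and Gp1ba was above 0 and not called (0.63 ± 0.44). The C cell markers that include Calca summed to 34830 to 67830 CPM in Rb1/Trp53/Crebbp and 117900 to 176900 CPM in Rb1/Trp53 tumours (3 of 4 called lower). These sums moved in the direction of Lamb2, Lama3, Itgb3, Itgb6 and Itga7, and their part in those values was not tested. Itgb8 and Lama1 moved against all of these sums.

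Whether the genotype difference itself differed between the sets was tested as an interaction over all 17 libraries, given as the Pomc-high difference minus the Calca-high difference. Of 34 members tested 6 were called, 17.6%, against 22.9% of the 15432 genes tested. Lama5 had an interaction of -2.83 ± 0.40 SE on the log2 scale (Benjamini-Hochberg adjusted p = 0.000385 by edgeR's quasi-likelihood F test) and Itgb8 of -4.02 ± 0.62 (adjusted p = 0.000551, by the same test). For both genes the genotype value was below 0 in Pomc-high and above 0 in Calca-high tumours. The Itgb8 interaction rests in part on the 5 to 19 counts of the Calca-high Rb1/Trp53 libraries. In Pomc-high tumours Itgb8 stood at 1.48, 4.36, 2.86 and 5.42 CPM in Rb1/Trp53/Crebbp and at 3.79, 5.71 and 9.68 CPM (lowest, median, highest) in Rb1/Trp53 tumours, overlapping groups with a log2 fold change of -0.80 ± 0.36 (adjusted p = 0.183, by the same test).

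Lamb2 had an interaction of 1.44 ± 0.29 (Benjamini-Hochberg adjusted p = 0.00293 by edgeR's quasi-likelihood F test), its values lying below 0 in both sets and further below in Calca-high tumours. Itgb6 had 1.40 ± 0.43 (adjusted p = 0.0284), Itga1 had -1.45 ± 0.38 (adjusted p = 0.0135) and Lamc1 had -0.54 ± 0.18 (adjusted p = 0.0363), all by the same test. Itga1 stood at 2.54, 8.07, 4.86 and 6.34 CPM in Rb1/Trp53/Crebbp and 3.33, 3.45 and 3.01 CPM in Rb1/Trp53 Calca-high tumours, so that 3 of the 4 Rb1/Trp53/Crebbp tumours were above all 3 Rb1/Trp53 ones and T1 was below them. Lamc1, the γ1 chain of most laminins, was called by genotype in neither set. Leaving out 1 library in turn gave 4 to 7 interaction calls. Those of Lama5, Itgb8, Lamb2 and Itga1 were kept in all 17 such fits, and those of Itgb6 and Lamc1 were lost in 3 and 9 of them.

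**Figure D3:**
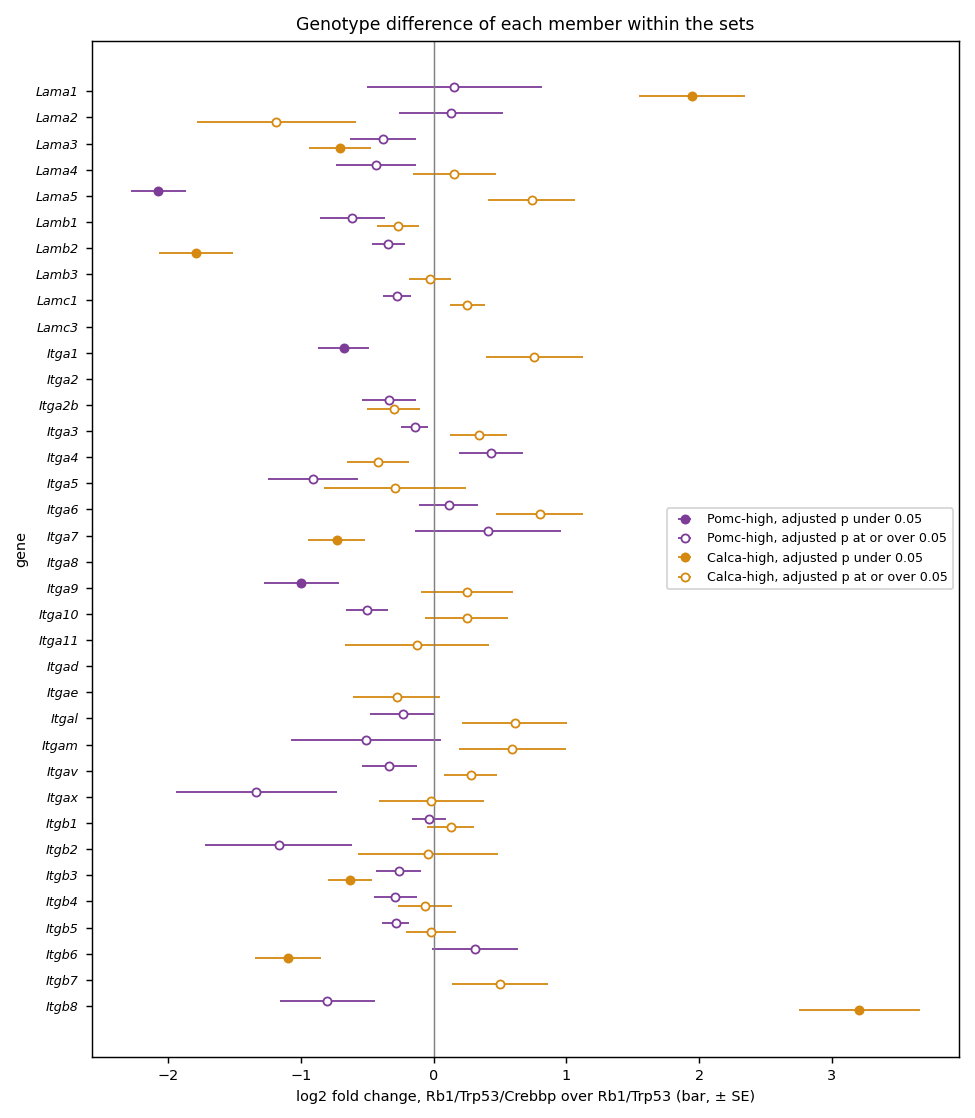
Log2 fold change of Rb1/Trp53/Crebbp over Rb1/Trp53 (x axis, points with bars of ± 1 SE) for each laminin and integrin gene (y axis), in Pomc-high (purple) and Calca-high (orange) tumours. Filled points have an adjusted p under 0.05, and rows or colours without a point were not tested. Lama5 is the filled purple point farthest left at -2.07, and Itgb8 the filled orange point farthest right at 3.21.

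As shares within the alpha or the beta chains, per length, the laminins of the sets and genotypes had different makeups. Lama5 made up 36.1% to 46.6% of the summed alpha chains in Rb1/Trp53/Crebbp and 61.8% to 79.7% in Rb1/Trp53 Pomc-high tumours, and 56.2% to 81.9% in Rb1/Trp53/Crebbp and 50.4% to 61.7% in Rb1/Trp53 Calca-high tumours. The sum of the 5 alpha chains was 4.66 to 5.27 CPM per kb in Rb1/Trp53/Crebbp and 8.80 to 15.2 CPM per kb in Rb1/Trp53 Pomc-high tumours, without overlap. Lama3 then held 19.7% to 44.8% of the alpha chains in Rb1/Trp53/Crebbp and 13.8% to 23.1% in Rb1/Trp53 Pomc-high tumours. Among the beta chains of Calca-high tumours, Lamb2 held 15.9% to 25.2% in Rb1/Trp53/Crebbp and 38.0% to 49.1% in Rb1/Trp53 tumours, and Lamb3 held 49.7% to 61.3% in Rb1/Trp53/Crebbp and 34.2% to 40.7% in Rb1/Trp53 tumours. In Pomc-high tumours Lamb3 held at most 3.20% of the beta chains, and Lamb1 held 56.4% to 73.8% in Rb1/Trp53/Crebbp and 65.6% to 77.5% in Rb1/Trp53 tumours. These shares are descriptions of RNA and carry no test.

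**Figure D4:**
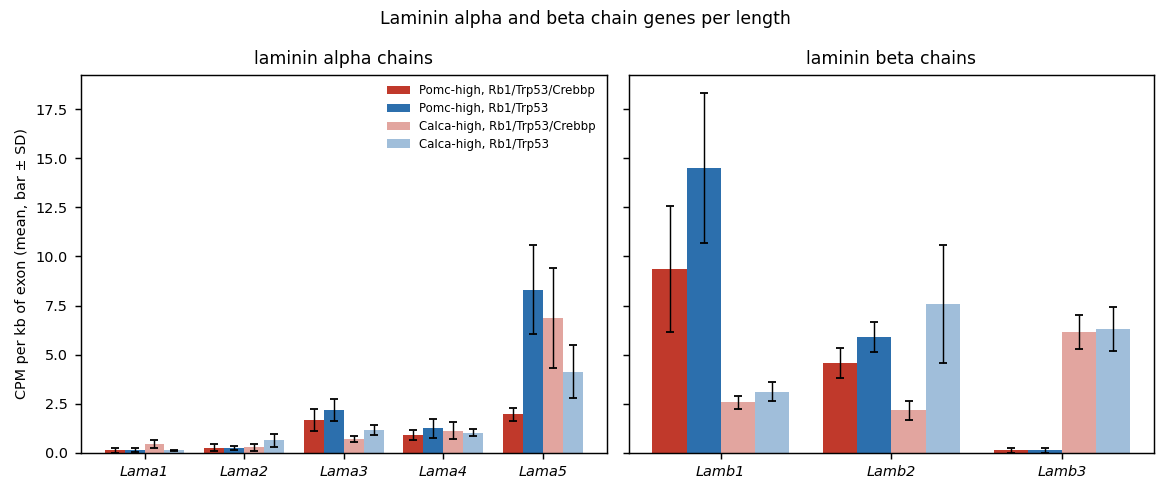
Mean level per kb of exon (CPM per kb, linear axis from 0, error bars 1 SD over tumours) of the laminin alpha and beta chain genes in the 4 groups of set and genotype. Lama5 is the tallest alpha chain in each group and shortest in Pomc-high Rb1/Trp53/Crebbp tumours, Lamb1 is the tallest beta chain in Pomc-high tumours, and Lamb3 is near 0 in Pomc-high tumours only.

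Between the sets, with the genotype as an additive term, 19 of 34 members tested were called, 55.9%, where 60.1% of all 15432 genes tested were called (edgeR quasi-likelihood test, Benjamini-Hochberg adjusted p under 0.05). The 6 higher in Pomc-high tumours were 17.6% of the members against 28.9% of all genes, and the 13 lower were 38.2% against 31.1%. The median log2 fold change of Pomc-high over Calca-high was -0.32 over the members tested and -0.01 over all genes. Leaving out 1 library in turn gave 17 to 19 calls.

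Lamb3, the β3 chain of the epithelial laminin that anchors hemidesmosomes, separated the sets most. It stood at 0.0522, 0.39 and 1.70 CPM (lowest, median, highest) in Pomc-high tumours, on 1 to 21 counts. In Calca-high tumours it stood at 27.0, 31.5 and 38.6 CPM, on 315 to 845 counts. No Pomc-high tumour came near the Calca-high range, and Lamb3 did not pass the low-count filter in Pomc-high tumours alone. The log2 fold change was -5.71 ± 0.40 SE, or 52.2-fold lower (Benjamini-Hochberg adjusted p = 1.52e-09 by edgeR's quasi-likelihood F test). Lamb1 went the other way, at 34.1, 70.2 and 119 CPM in Pomc-high and 12.5, 16.1 and 21.5 CPM in Calca-high tumours (lowest, median, highest). Its sets did not overlap either, with a log2 fold change of 2.05 ± 0.18, or 4.13-fold higher (adjusted p = 3.23e-08, by the same test). The printed window of Lamb1 held 2 GC boxes and that of Lamb3 none of the 4 motifs.

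Lama3, the alpha chain of the trimer that holds Lamb3, differed the opposite way. It stood at 9.86, 20.7 and 31.8 CPM in Pomc-high and 5.07, 9.23 and 15.2 CPM in Calca-high tumours (lowest, median, highest; log2 fold change 1.07 ± 0.19, Benjamini-Hochberg adjusted p = 0.000117 by edgeR's quasi-likelihood F test). The sets of Lama3 overlapped. Lamc1 was lower in Pomc-high tumours (log2 fold change -0.27 ± 0.11, adjusted p = 0.0415, by the same test). Lama1, Lama2, Lama4, Lama5, Lamb2 and Lamc3 were not called.

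Among the integrins, Itgb7, the beta subunit of the gut-homing lymphocyte receptors, stood at 0.0673, 0.387 and 0.531 CPM in Pomc-high and 1.46, 2.37 and 4.09 CPM in Calca-high tumours (lowest, median, highest). It rested on 1 to 8 counts in Pomc-high and 17 to 67 counts in Calca-high libraries. Itgb7 did not pass the low-count filter in Pomc-high tumours alone. Its sets did not overlap (log2 fold change -2.62 ± 0.30, Benjamini-Hochberg adjusted p = 9.23e-07 by edgeR's quasi-likelihood F test). Itga7 stood at 0.37, 0.952 and 3.23 CPM in Pomc-high and 4.65, 6.29 and 10.5 CPM in Calca-high tumours, and the highest Pomc-high value was again that of Rb1/Trp53/Crebbp T8, still below all Calca-high values (-2.53 ± 0.36, adjusted p = 9.31e-06, by the same test). Itga5 stood at 1.43, 5.56 and 7.20 CPM in Pomc-high and 4.29, 10.8 and 23.5 CPM in Calca-high tumours, with overlapping sets (-1.40 ± 0.32, adjusted p = 0.00117, by the same test). Itgb6 stood at 1.38, 2.26 and 3.7965 CPM in Pomc-high and 3.17, 4.16 and 11.0 CPM in Calca-high tumours, again with overlap (-1.23 ± 0.27, adjusted p = 0.000726, by the same test).

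Itgal and Itga8 were higher in Pomc-high tumours and stood low in both sets. Itgal, the alpha subunit of the leukocyte receptor LFA-1, stood at 3.52, 5.35 and 8.50 CPM in Pomc-high and 1.56, 2.08 and 4.61 CPM in Calca-high tumours (lowest, median, highest; log2 fold change 1.13 ± 0.26, Benjamini-Hochberg adjusted p = 0.000968 by edgeR's quasi-likelihood F test). The sets overlapped. The summed markers of other leukocytes ran opposite to Itgal and in the direction of Itgb7, at 1.27 to 7.46 CPM in Pomc-high and 5.39 to 39.4 CPM in Calca-high tumours. The part of leukocytes in the levels of both genes was not tested. Itga8 stood at 0.213, 0.721 and 1.02 CPM in Pomc-high and 0, 0.265 and 0.593 CPM in Calca-high tumours, on no more than 15 counts per library (1.15 ± 0.40, adjusted p = 0.0212, by the same test). It did not pass the low-count filter in either set alone. Its exons overlap those of E030013I19Rik on the opposite strand, and how reads of the shared stretch were counted is not known.

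**Figure D5:**
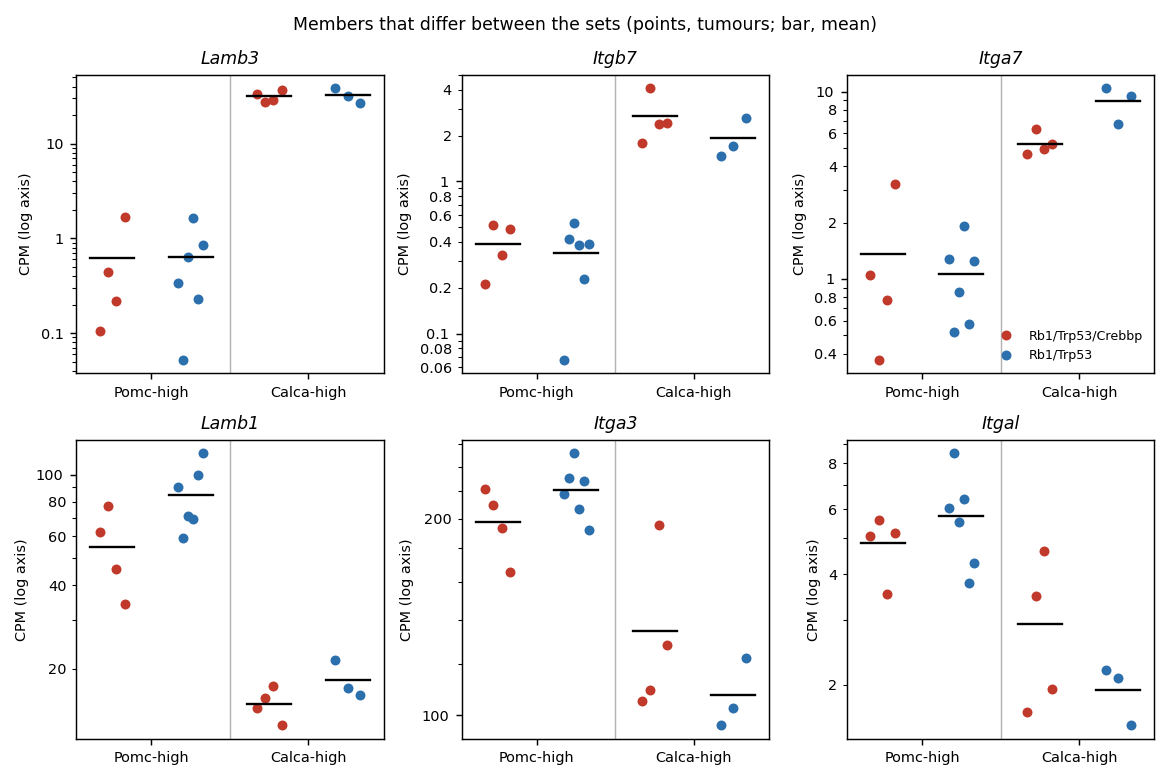
TMM-scaled CPM (log axes) of 6 laminin and integrin genes, 1 point per tumour, by set and genotype, with a bar at each mean. Lamb3, Itgb7 and Itga7 are lower and Lamb1, Itga3 and Itgal higher in Pomc-high tumours, and the sets of Lamb3 (at most 1.70 CPM in Pomc-high, at least 27.0 CPM in Calca-high tumours) do not overlap.

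Of the other called integrins, Itga3 was higher in Pomc-high tumours, at 166, 214 and 252 CPM in Pomc-high and 96.6, 109 and 196 CPM in Calca-high tumours (lowest, median, highest; log2 fold change 0.80 ± 0.13, Benjamini-Hochberg adjusted p = 5.53e-05 by edgeR's quasi-likelihood F test). Only the Calca-high tumour Rb1/Trp53/Crebbp T3, at 196 CPM, overlapped with the Pomc-high range. Itga4, a leukocyte and neural-crest subunit whose exons overlap those of Cerkl on the opposite strand, was also higher (0.70 ± 0.21). Itga11, Itgae, Itga6, Itga9, Itgb3, Itgb4 and Itgb5 were lower, with log2 fold changes of -1.09 (Itga11) to -0.53 (Itgb5). Of these, Itga11 and Itgae did not pass the low-count filter in Pomc-high tumours alone. Itga6 and Itgb4 together form the hemidesmosome receptor for the laminin that holds Lamb3, and they had -0.76 ± 0.22 and -0.57 ± 0.13. Itgb1 (0.17 ± 0.11), Itgav (-0.29 ± 0.18), Itga1, Itga10, Itga2b, Itgam, Itgax, Itgb2 and Itgb8 were not called. Summed simple epithelium markers were lower in Pomc-high tumours too, at 753 to 1202 CPM in Pomc-high and 1790 to 3201 CPM in Calca-high tumours, and all 5 were called lower. So were 5 of 6 fibroblast markers and 4 of 7 pericyte and smooth muscle markers. Thyroid follicle markers summed to 7.045 to 161 CPM in Pomc-high and 928 to 16820 CPM in Calca-high tumours, with all 5 called lower. Lung markers summed to 0.391 to 5.61 CPM in Pomc-high and 38.6 to 160 CPM in Calca-high tumours, with 3 of 4 called lower. All 3 fat markers tested were called lower too. Anterior lobe markers summed to 11.1 to 14150 CPM in Pomc-high and at most 0.183 CPM in Calca-high tumours, with all 6 called higher. The part of these cells in the member values was not tested.

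Within 1 genotype the set difference of several members was not the same. Over Rb1/Trp53/Crebbp tumours alone, Lama5 was lower in Pomc-high (log2 fold change -1.80 ± 0.26, Benjamini-Hochberg adjusted p = 0.000422 by edgeR's quasi-likelihood F test), and over Rb1/Trp53 tumours alone it was higher (1.003 ± 0.27, adjusted p = 0.00896, by the same test). Itgb8 had -0.51 ± 0.38 over Rb1/Trp53/Crebbp tumours (adjusted p = 0.287) and 3.49 ± 0.46 over Rb1/Trp53 tumours (adjusted p = 6.34e-05), both by the same test. The Calca-high side of the latter rests on 5 to 19 counts per library. Lamb2 had 1.10 ± 0.18 (adjusted p = 0.000631) over Rb1/Trp53/Crebbp tumours and -0.36 ± 0.20 (adjusted p = 0.156) over Rb1/Trp53 tumours. Itgb6 had -0.47 ± 0.30 (adjusted p = 0.22) over Rb1/Trp53/Crebbp and -1.90 ± 0.30 (adjusted p = 0.000225) over Rb1/Trp53 tumours. The call of Itgal was lost over Rb1/Trp53/Crebbp tumours (0.73 ± 0.34, adjusted p = 0.1) and that of Itga8 over Rb1/Trp53 tumours (0.93 ± 0.47, adjusted p = 0.117). In these fits 51.6% of all genes were called over Rb1/Trp53/Crebbp tumours and 54.7% over Rb1/Trp53 tumours.

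Over all 17 libraries, the contrast the labels give, 1 of 31 members tested was called, 3.23% against 3.86% of the 14338 genes tested, 1.81% higher and 2.05% lower (edgeR quasi-likelihood test, Benjamini-Hochberg adjusted p under 0.05). This was Lamb2, at 9.51, 18.2 and 30.7 CPM (lowest, median, highest) in Rb1/Trp53/Crebbp and 27.7, 32.3 and 60.9 CPM in Rb1/Trp53 tumours, with a log2 fold change of -0.94 ± 0.24 (adjusted p = 0.0363, by the same test). The groups overlapped between 27.7 and 30.7 CPM, and the call was lost in 10 of 17 fits that left out 1 library. With the set as a term 3 were called lower, Lamb2 (-0.96 ± 0.22), Itgb3 (-0.44 ± 0.13) and Lamb1 (-0.49 ± 0.17), where 18.0% of all genes were called. Lama5 was not called over all 17 libraries (-0.65 ± 0.38, Benjamini-Hochberg adjusted p = 0.342 by edgeR's quasi-likelihood F test), and Itgb8 had a log2 fold change of -0.01 ± 0.56, its set values lying on either side of 0.

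Genes that work with laminins and integrins were followed in 4 lists of 95 entries, chosen by function. In Pomc-high tumours the genotype comparison called 1 of 16 tested basement membrane partners, 2 of 11 laminin receptors other than integrins, 2 of 26 other integrin ligands and 4 of 31 adaptors and signalling genes, all lower but 1 adaptor, where 8.42% of all genes tested were called. The basement membrane gene was Hspg2, which encodes perlecan, the heparan sulphate proteoglycan that binds laminin. It stood at 9.81 to 16.2 CPM in Rb1/Trp53/Crebbp and 24.3 to 36.8 CPM in Rb1/Trp53 tumours, so Hspg2, like Lama5, did not overlap between the genotypes (log2 fold change -1.33 ± 0.17, Benjamini-Hochberg adjusted p = 0.000638 by edgeR's quasi-likelihood F test). The receptors were the syndecans Sdc4 (-0.88 ± 0.12) and Sdc3 (-0.51 ± 0.11), and the ligands were Adam9 (-0.43 ± 0.10) and Emilin1 (-0.89 ± 0.21). Tns1, encoding the focal adhesion protein tensin, stood at 23.3 to 28.8 CPM in Rb1/Trp53/Crebbp and 45.2 to 77.9 CPM in Rb1/Trp53 tumours (-1.08 ± 0.15).

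In Calca-high tumours 8 of 19 basement membrane partners were called, 4 in each direction, with 6 of 11 laminin receptors (3 in each direction), 10 of 28 ligands (3 higher, 7 lower) and 9 of 32 adaptors (6 higher, 3 lower), where 36.2% of all genes tested were called, 19.1% higher and 17.1% lower. Smoc1, encoding a basement membrane glycoprotein, stood at 34.4 to 61.5 CPM in Rb1/Trp53/Crebbp and 7.90 to 10.6 CPM in Rb1/Trp53 tumours (2.31 ± 0.23). Agrn, encoding agrin, which links laminin to dystroglycan, stood at 130 to 197 CPM in Rb1/Trp53/Crebbp and 70.5 to 92.9 CPM in Rb1/Trp53 tumours (0.99 ± 0.16). Sdc4 was lower (-1.60 ± 0.16) and Sdc3 higher (1.40 ± 0.20), so Sdc4 was called lower in both sets and Sdc3 had an interaction of -1.92 ± 0.22. Cdh1, the epithelial cadherin and ligand of the integrin with Itgae, stood at 56.7 to 85.2 CPM in Rb1/Trp53/Crebbp and 239 to 296 CPM in Rb1/Trp53 tumours (-1.89 ± 0.15). Dst, encoding the hemidesmosome linker dystonin, was higher (1.18 ± 0.15).

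More partners were called between the sets, as were more of all genes (60.1%, with 28.9% higher and 31.1% lower in Pomc-high). The calls were 17 of 19 basement membrane partners (4 higher, 13 lower) and 6 of 11 receptors (3 in each direction). They also held 20 of 28 ligands (4 higher, 16 lower) and 20 of 32 adaptors (6 higher, 14 lower). Bcam, the Lutheran glycoprotein and a receptor for the laminin α5 chain, stood at 55.9 to 91.3 CPM in Pomc-high and 316 to 682 CPM in Calca-high tumours (-2.80 ± 0.15). Tnc, encoding tenascin-C, was lower in Pomc-high tumours (-4.87 ± 0.29), and Mfge8, encoding a secreted ligand of the αv integrins, was higher (3.92 ± 0.17). Smoc2 (-4.77 ± 0.32), Tinagl1 (-3.52 ± 0.26) and Fras1 (-2.39 ± 0.17), all of the basement membrane, were lower. Cdh1 was lower as well (-5.79 ± 0.39), at no more than 6.76 CPM in any Pomc-high tumour. All values after gene names in these lists are log2 fold changes with SE and had an adjusted p under 0.05.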

How the data were processed

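RNA of 17 tumours was extracted with TRIzol, selected with oligo-dT beads and made into NEBNext Ultra libraries, per the labels' protocols. Per the submitters' processing notes, reads were handled with bcl2fastq (1.8.2), TopHat2 (2.0.12) and HTSeq (0.6.1) on build mm9. The annotation, the strand setting and read filters were not given in the sources used here. The authors deposited raw counts, a table for each tumour holding 23284 genes and 5 summary rows that name no gene (reads on no feature 11.7% to 21.7%, not unique 8.20% to 18.5%, ambiguous 0.56% to 0.843% of each table), which entered neither library sizes nor tests. No table repeated another: the lowest chi-square per degree of freedom over 64 pairs within a genotype was 8.30.

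The counts went into edgeR 4.0.16 under R 4.3.3 (filterByExpr, TMM, robust quasi-likelihood F test, Benjamini-Hochberg over all genes tested, threshold 0.05). Fits covered the genotype within each set, their interaction, the set with genotype as a term, and the genotype over all 17 libraries. Fold changes have Rb1/Trp53/Crebbp over Rb1/Trp53, or Pomc-high over Calca-high, and the SE was taken from the log2 fold change and its F statistic. Depth limits genes under about 1 CPM, which rest on few counts in the shallower libraries. Exon lengths are the unions of basic protein-coding transcripts of GENCODE M21. Promoter windows are RefSeq's for GRCm38.p6, at the start farthest upstream, and coordinates of that build were not mixed with the counts. The members, the 16 marker and 4 partner lists, the tests and the rule for named genes were chosen with earlier results of these data known. In addition to the 36 members described, 1 gene that meets the rule is not reported here; it stayed in the fits and is in no count of members. Members called in a genotype or interaction fit, the 8 called members with the largest set difference and, of each partner list, the 3 genes with the smallest adjusted p per fit could be named with values; other members are given by range, and Itga5, Itgax, Itgb2 and members whose values stand beside a called partner were named after their values were seen, as were the genes whose windows are printed. Alternatives were DESeq2 1.42.0, its size factors, limma-voom (limma 3.58.1), other filters, the tumour number as a block, fits of subsets and each library left out. The fits were tested on simulated counts.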

Additional observations from a re-analysis of the deposited data

Results flagged for a closer look

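Of 88 groups of 4 or 6 tumours examined, 4 held 1 tumour that stood farther from its neighbour than a 95% critical value allows; chance flags about 1 in 20 groups. In the Pomc-high Rb1/Trp53/Crebbp tumours these were T8 for Itgax (3.07 CPM, high) and Lama1 (3.15 CPM, high) and T6 for Itga10 (4.88 CPM, low). In the Pomc-high Rb1/Trp53 tumours it was T8 for Itga6 (5.28 CPM, low). Rb1/Trp53/Crebbp T8 was also the highest of its group in summed glial, Schwann cell, macrophage, endothelial and fibroblast markers, and the part of those cells in its Itgax and Lama1 levels was not tested.

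The genotype difference was unlike in the 2 sets for 6 genes, by the interaction test (log2 Pomc-high difference minus Calca-high difference): Itgb8 at -4.02, Lama5 at -2.83, Itga1 at -1.45, Lamb2 at 1.44, Itgb6 at 1.40 and Lamc1 at -0.54. The call of Lamc1 was lost in 9 of 17 fits that left out 1 library and that of Itgb6 in 3.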

How the results depend on the processing

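The 25 single-gene results followed were all called in the main fits, so none could gain a call. Over their alternatives, 426 of 495 values kept their direction and their side of the threshold. A further 69 kept the direction and were no longer past it, and 0 reversed. In Pomc-high tumours the number of members called, 3, became 1 without the low-count filter and 1 with a replicate block, and leaving out 1 library gave 1 to 5. In Calca-high tumours the block gave 5 calls, 3 higher and 2 lower, against 7 with 2 higher and 5 lower: Itgb6 (adjusted p = 0.07), Itga7 (0.0839) and Lama3 (0.103) lost theirs and Lama5 gained one (log2 fold change 0.91, adjusted p = 0.0369). Over all 17 libraries the 1 call became 0 with the replicate block (edgeR; 4 at an unadjusted p under 0.05) and 3 with the set as a term, and leaving out 1 library gave 0 to 1. Counts over all genes that moved by over 1.5 times were 1917 by DESeq2 and 354 with the block against 1179 (Pomc-high), 2700 with the block against 5355 (Calca-high), and 1397 by DESeq2 and 2575 with the set as a term against 554 (all 17). Leaving out 1 library moved them by as much in Pomc-high tumours without Rb1/Trp53/Crebbp T7 (752), and over all 17 without Rb1/Trp53/Crebbp T1 to T4 (285 to 332), Rb1/Trp53 T7 (313) and T8 (326), and Rb1/Trp53/Crebbp T5 (1010). The causes were not tested. The labels do not say what the tumour numbers share. The deviations of same-numbered tumours correlated at -0.175 to 0.196 over genes, and 2 of 8 Rb1/Trp53/Crebbp tumours correlated best with their own number. Weak correlations over so few tumours cannot show that the numbers share nothing. Itga2 and Itgad, with at most 10 and 2 counts in a library, did not pass the low-count filter in any comparison, and no difference in them was detectable at this depth.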
